A study of Saccharomyces cerevisiae with 26 samples.

Results

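The genes described here encode proteins of the mitochondrial ribosome of Saccharomyces cerevisiae. They were chosen by symbol: MRPL, MRPS, MRP or RSM followed by digits only. The rule gave 67 genes out of the 5656 genes that have a probe set assigned to 1 gene, and all 67 were among the 5369 genes that passed the filter on low signals. Of these, 38 encode proteins of the large subunit and 27 proteins of the small subunit. The other 2 are MRP8, a protein of unclear function that carries the name without being a known ribosome subunit, and RSM22, a methyltransferase-like protein tied to small subunit assembly. Only MRPL44 had over 1 probe set, and the brighter one was used.

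The mitochondrial ribosome translates the few proteins that mitochondrial DNA encodes, which are mainly core subunits of cytochrome c oxidase, cytochrome b and membrane subunits of ATP synthase. All of its proteins except Var1 are encoded in the nucleus, made in the cytosol and imported. Many have a counterpart in bacterial ribosomes, and others are found in mitochondrial ribosomes only. In yeast, respiratory chain genes are repressed by glucose and depend in part on the Hap2/3/4/5 activator, while Sfp1 is known as an activator of cytosolic ribosomal protein and ribosome biogenesis genes.

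RNA was measured on 26 Affymetrix yeast arrays in 12 groups, 13 arrays for each of 2 haploid strains. The reference strain was CEN.PK113-7D (MATa MAL2-8c SUC2). The other, called the deletion strain below, was MATa MAL2-8c SUC2 with a mutant leu2 gene, and its SFP1 was replaced by the KlLEU2 marker (sfp1Δ::KlLEU2), so the strains also differ at LEU2. All cultures were aerobic, glucose-limited chemostats (continuous cultures with a fixed growth rate), held at 30 °C and pH 5.0 with a dilution rate set to 0.10 per h. Each strain was sampled at steady state in 3 cultures. After the medium feed was stopped and air replaced by nitrogen, 200 mM glucose was injected, and 2 independently grown cultures per strain were sampled at 5, 10, 30, 60 and 120 min. Glucose excess and loss of oxygen therefore came together and cannot be told apart here.

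SFP1 itself had signals of 99.3 to 116 at reference steady state, and lay under the floor of 12 on all 13 deletion arrays, at 0.2 to 2.9. The median signal of an array lay between 22.7 and 49.0. Correlations of log2 signal between arrays of a group were 0.970 to 0.993 in 10 of the 12 groups. They were 0.805 for the deletion strain at 10 min and 0.796 at 30 min. Across these labels, the first 10 min array correlated at 0.978 with the second 30 min array, and the second 10 min array at 0.922 with the first 30 min array. The 2 arrays of each label thus differed, and each resembled an array of the other label. The median of 38 respiratory chain genes, relative to reference steady state, was 0.10 on the first 10 min array and -2.41 on the first 30 min array, beside -0.18 and -0.14 at 10 min and -4.14 and -4.02 at 30 min in the reference strain. It was -2.56 on the second 10 min array and 0.15 on the second 30 min array, so these 2 go against their labels. Whether they were exchanged was not tested. The array codes of these 2 start with MA, as does that of deletion 60 min replicate 1, and all other codes start with ES. What the prefix marks is not known here, and its part was not tested. All 4 deletion arrays labelled 10 and 30 min were left out of every comparison except the one at the end. The ratio of the 5′ to the 3′ actin probe set, a sign of RNA integrity, was 0.697 to 0.923 on the reference arrays. It was 0.147 on deletion steady state replicate 1 and 0.247 on deletion 60 min replicate 1, which are among the arrays kept.

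Changes are log2 differences between group means with their standard errors, and adjusted p values come from limma with Benjamini-Hochberg adjustment over all 5369 genes. A gene was called at an adjusted p under 0.05. The percentage of all genes tested that were called in the same direction is given beside the first count of each comparison, and other lists are read against the same percentage. The deposited signals share a fixed trimmed mean, and the array median fell after the pulse, so the median change of all genes is given beside the members' median. Between the deposited scaling and one that gives arrays a common median, the median change of all genes in the reference strain at 30 min moved from -0.53 to 0.18 on the log2 scale. It was 0.09 after quantile normalization. Statements about direction were therefore checked under all 3. Signals are relative to the total RNA on an array, and in these bulk samples fewer cells that express a gene and less of its RNA per cell cannot be told apart.

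**Figure D1:**
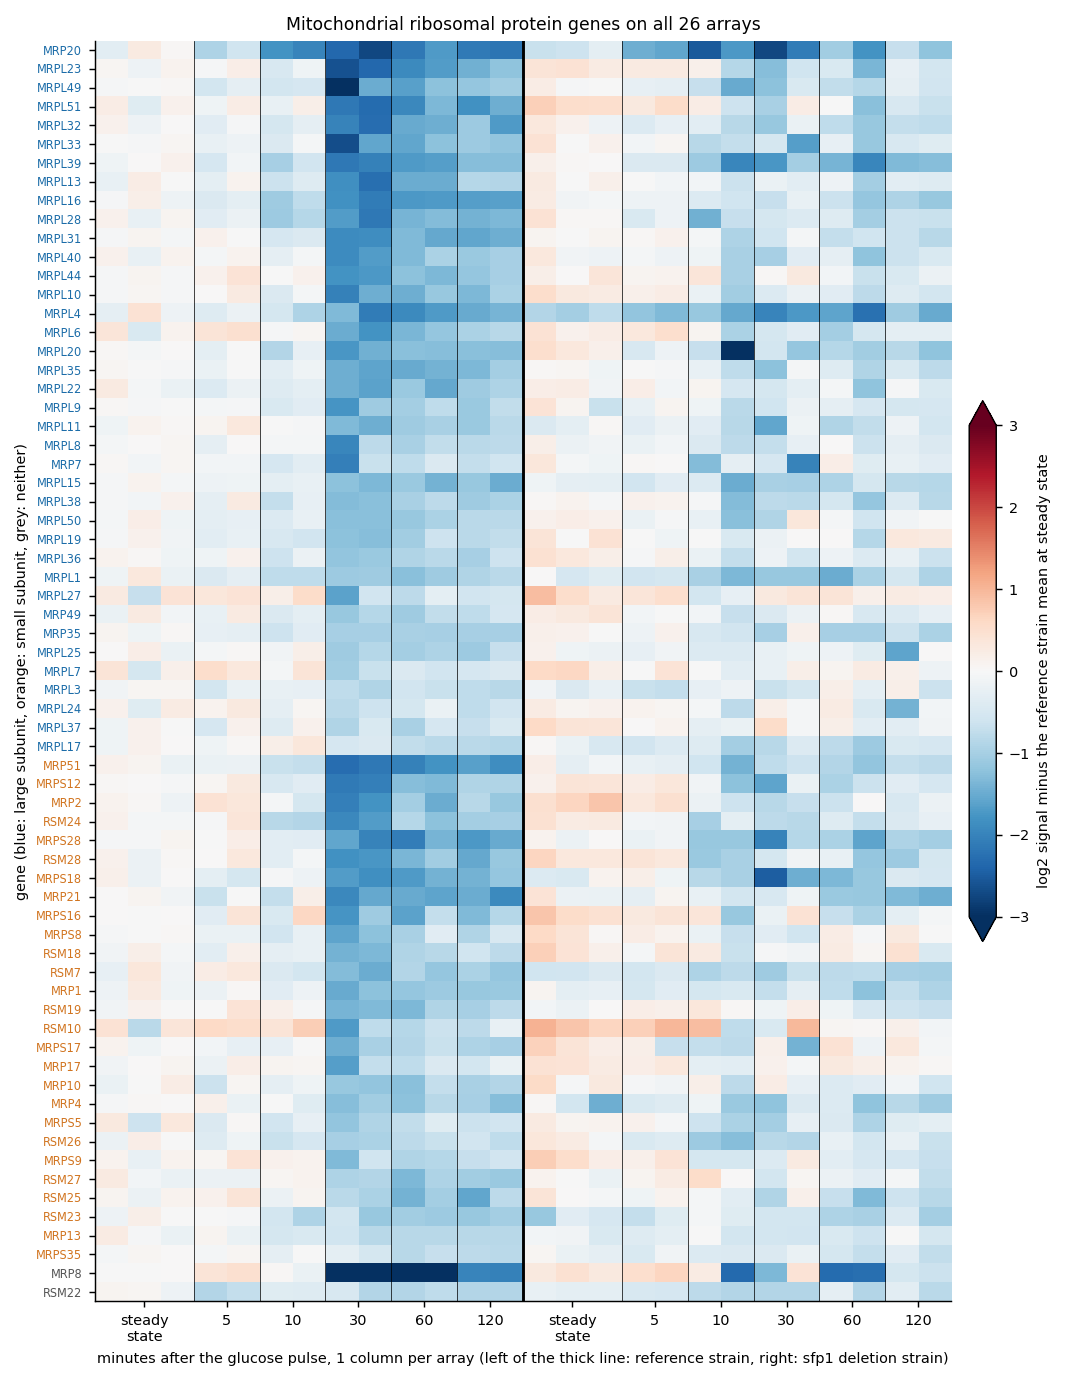
Heat map of the 67 genes (rows, grouped by subunit and ordered by change at 30 min) on all 26 arrays (columns). Colour gives log2 signal minus the reference strain's mean at steady state, with values beyond 3 in either direction shown in the end colours. The reference columns at 30, 60 and 120 min are blue for nearly every gene. The deletion columns labelled 10 and 30 min differ between replicates.

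In the first 5 min after the pulse few of the reference strain's mitochondrial ribosomal protein genes changed. Only 1 of 67 was called lower, against 6.67% of all genes, and none was called higher, against 2.98%. The median change was -0.06, and that of all genes -0.07. The gene called was RSM22, with signals of 20, 23.1 and 23.3 at steady state and of 11.1 and 13.5 at 5 min. The groups did not overlap, but 1 array at 5 min was under the floor, so RSM22 was at least 1.73-fold lower (limma adjusted p 0.00535). Without reference 5 min replicate 1 this call was lost.

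By 10 min, 17 of the 67 genes were lower in the reference strain, none was higher, and the median was -0.27. Across all genes 31.6% were called lower, 15.2% higher, and the median was -0.17, so the count was no larger than the background. Within this group MRP20 stood lowest. It encodes the mitochondrial member of the uL23 protein family, which sits at the exit of the large subunit's peptide tunnel. MRP20 signals were 64.5, 81.7 and 96.6 at steady state, 42.1 and 52.5 at 5 min, and 20.2 and 22.9 at 10 min. These 3 groups did not overlap, and the change at 10 min was -1.89 ± 0.24 (SE; limma adjusted p 6.26e-06).

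The next largest falls at 10 min were those of MRPL28, a mitochondria-specific large subunit protein (-0.97), MRPL16, the uL16 protein (-0.92), and RSM24, a mitochondria-specific small subunit protein (-0.85). MRPL39, the bL33 protein, changed by -0.78, and MRP51, a small subunit protein needed for translation of several mitochondrial messages, by -0.69. MRP20, MRPL28, MRPL16, RSM24, MRPL39 and MRP51 are the 6 genes that were called lower under all 3 scalings. The share of all genes so called was not computed, and can be at most 23.2%. These 6 genes were also called in each of the 22 fits that left out 1 array. In the same fits the count of genes called lower ranged from 11 to 21, the lowest being without reference 10 min replicate 1. Under quantile normalization 11 were lower against 23.8% of all genes, and with a common median 9 against 23.2%. Of the 67 changes at 10 min 55 were negative and 12 positive, none of the latter called. The median of all genes was negative too, at -0.17. MRPL17, a mitochondria-specific large subunit protein, was the one called higher under other scalings. Its signals were 93.4, 103 and 111 at steady state and 115 and 129 at 10 min, the highest of any group for this gene. That difference of 0.25 was not called on the deposited scale (limma adjusted p 0.193), but was under both other scalings (0.39 and 0.44), where 20.4% and 21.2% of all genes were called higher.

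At 30 min all 67 genes were called lower in the reference strain, against 53.0% of all genes called lower and 22.6% higher. The median change was -1.39, with quartiles of -1.78 and -1.06, and the median of all genes was -0.53. Arrays at 30 min lay wholly below those at steady state for 65 of the 67, and for 55.6% of all genes. The large subunit (38 of 38 lower, median -1.48) and the small subunit (27 of 27, median -1.36) had similar medians. Proteins with a bacterial counterpart had a median of -1.40 over 41 genes and mitochondria-specific proteins a median of -1.12 over 24 genes. These medians are descriptions and their differences were not tested. The call for 58 of the 67 held in all 22 fits that left out 1 array, a share that was not computed over all genes.

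The scaling matters for the smaller falls. Under quantile normalization 43 genes were lower and 2 higher, where 33.6% of all genes were called lower and 40.0% higher. With a common median 40 were lower and 2 higher, against 32.7% and 43.6%. The set of genes called lower under all 3 scalings held 36 members. How many of all genes were so called was not computed, and their share can be at most 32.7%. Set against the median of all genes, the members' median lay 0.86 lower on the deposited scale, 0.65 lower after quantile normalization and 0.70 lower with a common median.

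**Figure D2:**
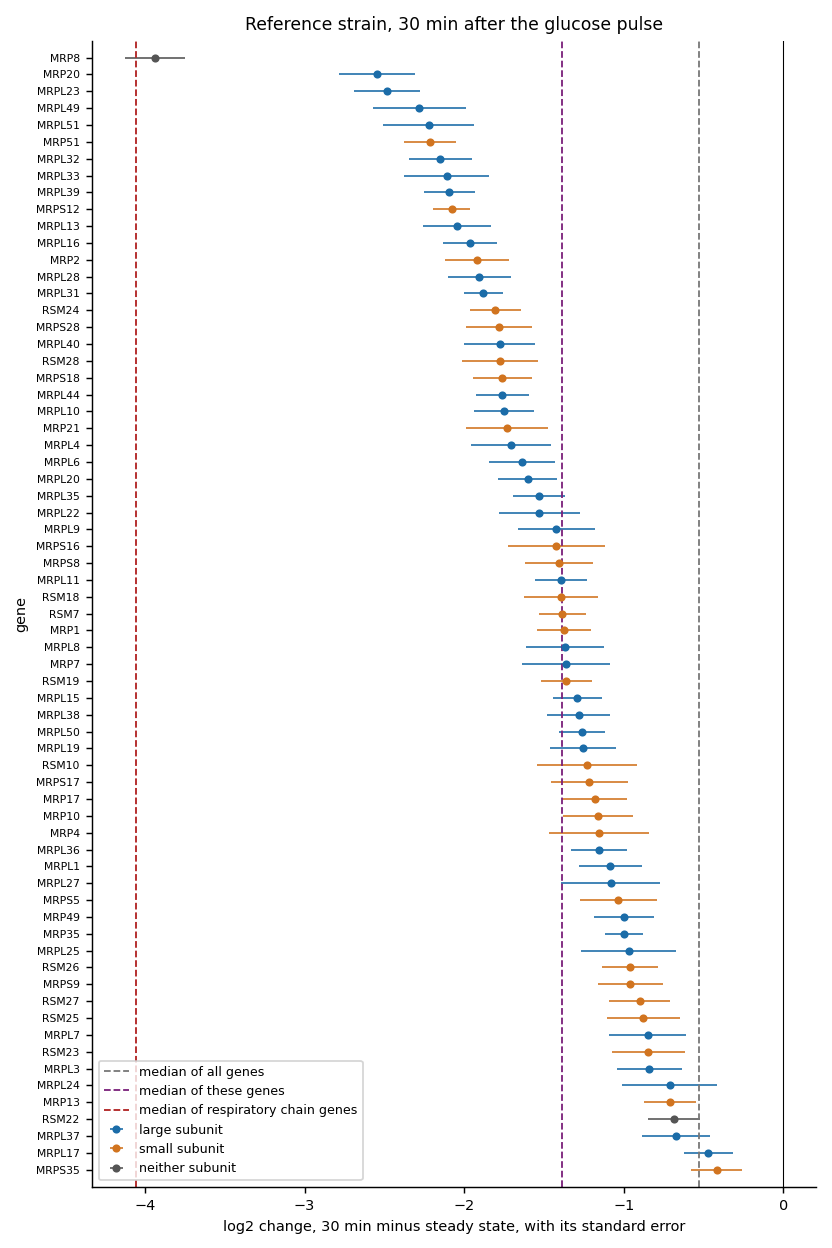
Log2 change from steady state at 30 min in the reference strain for each of the 67 genes (points, with the standard error as bars), coloured by subunit. Dashed lines mark the medians of all genes (-0.53), of these genes (-1.39) and of 38 respiratory chain genes (-4.06). Each point lies left of 0, and only MRP8 comes near the respiratory chain median.

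MRP8 changed most. Its signals were 366, 369 and 373 at steady state, 482 and 512 at 5 min, and 18.4 and 31.7 at 30 min. The change at 30 min was -3.94 ± 0.19, a 15.3-fold fall (limma adjusted p 4.16e-12), and the groups lay far apart. RSM22, the other gene of neither subunit, had signals of 11.4 and 15.7 at 30 min, so it was at least 1.61-fold lower. Under quantile normalization that call turned to higher (0.48), with all of its signals near the floor.

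Among the large subunit proteins MRP20 was lowest again, with signals of 11.7 and 15.6 at 30 min. Of these, 1 lay under the floor, so it was at least 5.84-fold lower than at steady state. MRPL23, the uL13 protein, had 199, 228 and 237 at steady state and 35.9 and 43.2 at 30 min, a change of -2.49 ± 0.21 (limma adjusted p 6.53e-09). MRPL39 had 402, 438 and 475 at steady state and 98.1 and 107 at 30 min, a change of -2.09 ± 0.16 (limma adjusted p 2.23e-09). The arrays of MRPL23 and MRPL39 did not overlap between groups, and the replicates lay close together.

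MRPL49, the bL21 protein, had signals of 98.3, 101 and 104 at steady state, but 8.4 and 36.1 at 30 min. Both lay below steady state, yet they were far from each other. Since the lower one was under the floor, the means of the floored log2 signals put MRPL49 at least 4.86-fold lower. Its change of -2.28 was -1.49 without reference 30 min replicate 1 and remained called. The other large subunit genes among the 12 with the largest changes were MRPL51 (mitochondria-specific, -2.22), MRPL32 (bL32, -2.15), MRPL33 (uL30, -2.11), MRPL13 (mitochondria-specific, -2.04) and MRPL16 (-1.96). All 5 kept their call in each fit without 1 array and under all 3 scalings.

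In the small subunit the largest falls were those of MRP51 and MRPS12. MRP51 had signals of 87.5, 106 and 109 at steady state and of 20.6 and 22.8 at 30 min, a change of -2.21 ± 0.16 (limma adjusted p 1.14e-09). MRPS12 encodes the uS12 protein of the decoding centre. Its signals were 469, 486 and 491 at steady state and 111 and 117 at 30 min, a change of -2.08 ± 0.11 (limma adjusted p 2.67e-11). Replicates of both genes lay close together and the groups were clearly apart.

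The 8 smallest changes at 30 min were those of MRPS35, MRPL17, MRPL37, RSM22, MRP13, MRPL24, MRPL3 and RSM23. MRPS35, MRPL17, MRPL37, MRP13, MRPL3 and RSM23 are mitochondria-specific, and MRPL24 belongs to the bL28 family. MRPS35, a small subunit protein, had signals of 92.5, 97.4 and 101 at steady state and 67.0 and 78.5 at 30 min. That change of -0.42 ± 0.16 (limma adjusted p 0.0262) was about the size of the median of all genes, -0.53. MRPL17 had 72.3 and 75.0 at 30 min (-0.47 ± 0.15, limma adjusted p 0.0102). MRPS35 was called higher under quantile normalization (0.34) and with a common median (0.46), as was MRPL17 with a common median (0.41).

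MRPL37 (-0.67), MRP13 (-0.71), MRPL24 (-0.71), MRPL3 (-0.84) and RSM23 (-0.85) were not called under either of the other scalings. The calls of MRPL24, MRPS35, MRPL17, MRPL37 and RSM23 also depended on single arrays. MRPL24 lost its call without reference steady state replicate 1 or 3 or either 30 min array, MRPS35 without reference steady state replicate 2 or 3 or 30 min replicate 2, MRPL17 and MRPL37 without 30 min replicate 1, and RSM23 without 30 min replicate 2. Signals of MRP13 and RSM23 were under 30 on every array, and 1 of the 30 min arrays of each was under the floor.

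At 60 min 62 of 67 genes were still lower in the reference strain (43.8% of all genes lower, 22.1% higher, median -1.12 against -0.27). At 120 min it was 61 of 67 (37.4% of all genes lower, 19.0% higher, median -1.0 against -0.18). Under quantile normalization 37 and 41 were lower at these times, against 28.6% and 23.9% of all genes. With a common median it was 38 and 41, against 28.9% and 23.4%. None was called higher at 60 or 120 min under any of the 3 scalings, where 41.4% and 37.2% of all genes rose after quantile normalization and 42.4% and 37.5% with a common median. Not called at 120 min on the deposited scale were MRP7, MRP17, MRPL7, MRPL24, MRPL27 and RSM10, whose changes lay between -0.66 and -0.37. In RSM10, MRPL7 and MRPL27 the steady state arrays themselves spread widely, since replicate 2 was low (57.3, 63.2 and 52.1) and the other arrays of these genes lay between 100.3 and 135.

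MRP20 had the largest change at 120 min, with signals of 17.5 and 18.4 (-2.15 ± 0.24, limma adjusted p 6.03e-07). MRP8 followed with 90.0 and 93.9 (-2.01 ± 0.19), then MRP51 with 27.5 and 32.5 (-1.75 ± 0.16). MRP21, the bS21 protein of the small subunit, had 16.5 and 22 after 57.8 to 66.0 at steady state (-1.70 ± 0.26). In all 4 genes the arrays at 120 min lay below those at steady state. The smallest changes were those of MRP17 (-0.37), MRPL7 (-0.47), RSM10 (-0.50) and MRPL27 (-0.55).

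Between 30 and 120 min 21 of the 67 genes rose and none fell, against 36.1% of all genes called higher and 17.3% lower, so the count is no larger than the background. The median rise of 0.39 exceeded that of all genes (0.18), but it became -0.01 under quantile normalization and -0.02 with a common median. There 8 and 7 genes were higher and 7 were lower under each, against 26.4% and 25.0% of all genes higher and 25.6% and 32.5% lower. The 21 fell to 11 without reference 30 min replicate 1 and to 12 without reference 120 min replicate 2.

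The 6 genes that rose from 30 to 120 min under all 3 scalings were MRP8, MRPS12, MRPL49, MRPL13, MRPL23 and MRPL39. The share of all genes so called was not computed, and can be at most 25.0%. All 6 are among the 12 with the largest change at 30 min. Both changes use the same 30 min arrays, which favours such an overlap, and it was not tested. MRP8 rose by 1.93 ± 0.21 and MRPS12, with 258 and 259 at 120 min, by 1.18 ± 0.12. MRPL49 lost its call without reference 30 min replicate 1. MRP20, with 17.5 and 18.4 at 120 min after 11.7 and 15.6 at 30 min, was not called (0.39).

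The lowest group mean of the reference time course fell at 30 min in 55 genes, at 60 min in 6 and at 120 min in 6. That order depends on the deposited scale: under quantile normalization it was 29, 8 and 27 genes and with a common median 28, 9 and 26. On the deposited scale it fell at 30 min in 39 of the 41 genes with a bacterial counterpart and in 15 of the 24 mitochondria-specific genes. Of the change at 30 min, a median of 72.6% was left at 120 min over the 67 genes (range 31.3 to 189%), also on the deposited scale. The members' median at 120 min was 71.9% of that at 30 min there, 96.8% after quantile normalization and 109% with a common median. The median was 65.4% for genes with a bacterial counterpart and 80% for mitochondria-specific ones. On the deposited scale the change was larger at 120 than at 30 min in 8 genes. Under the other scalings 35 and 36 were lower at 120 than at 30 min. Of the 8, 7 were mitochondria-specific and the other was RSM22, whose 120 min arrays were under the floor. The 7 include MRP13 and RSM23, each with 1 array under the floor at 30 min. At 120 min 2 arrays of MRP13 and 1 of RSM23 were under it. MRPS35 was also one of the 8, with signals of 55.6 and 56.6 at 120 min after 67.0 and 78.5 at 30 min. MRPL17 was another, with 56.4 and 57.8 after 72.3 and 75.0. These later falls were called for both genes under quantile normalization and a common median, not on the deposited scale. They are values chosen after they were seen, and the split by class was not tested.

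**Figure D3:**
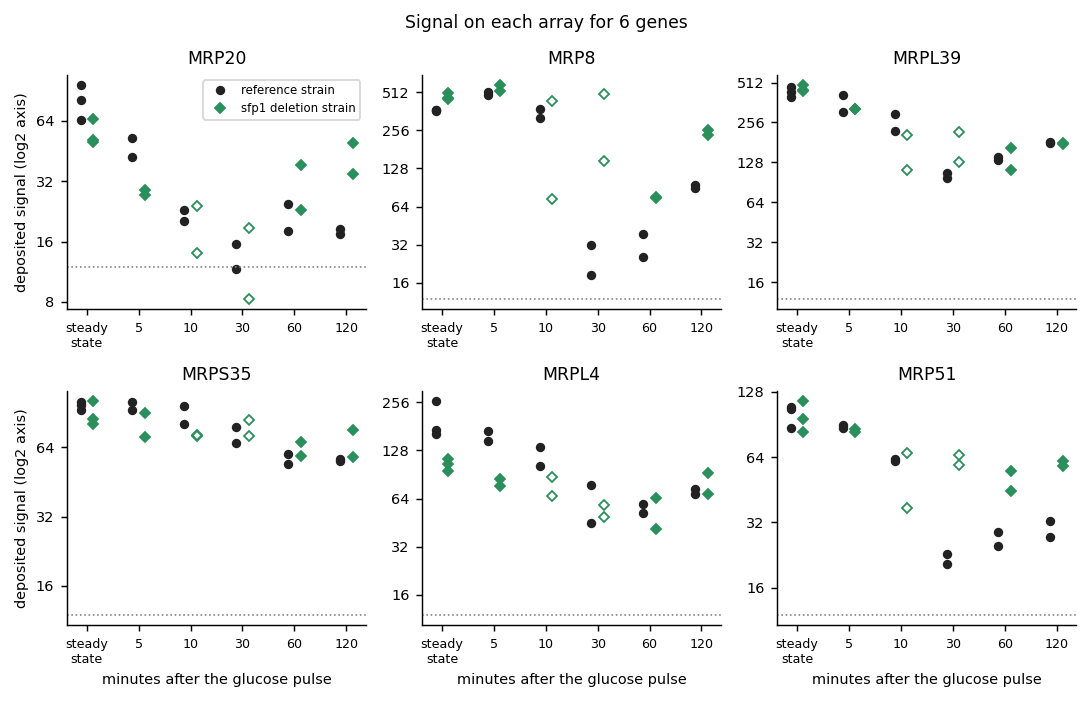
Deposited signal on each array (log2 axis) for MRP20, MRP8, MRPL39, MRPS35, MRPL4 and MRP51 by time after the pulse. Black circles are the reference strain and green diamonds the deletion strain, open on the 4 arrays labelled 10 and 30 min, and the dotted line is the floor of 12. MRP20 is already low at 10 min, MRP8 is high at 10 min and low at 30 min in the reference strain, and MRPS35 moves least.

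The respiratory chain genes fell far more than the mitochondrial ribosomal protein genes. The list holds 38 genes for NADH and succinate dehydrogenases, the cytochrome bc1 complex, cytochrome c, cytochrome c oxidase and ATP synthase. At 10 min 7 of the 38 were lower and the median was -0.13, while the ribosomal protein median was -0.27. At 30 min 38 of 38 were lower with a median of -4.06, at 60 min -4.19 and at 120 min -3.29. NDI1, the internal NADH dehydrogenase, changed by -6.28 ± 0.22 at 30 min, and SDH3 and COX5A, subunits of succinate dehydrogenase and cytochrome c oxidase, by -5.70 each. COX6, another cytochrome c oxidase subunit, had a mean signal of 1331 ± 68.3 (SD, n = 3) at steady state and of 61.6 ± 10.3 (n = 2) at 30 min.

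No mitochondrial ribosomal protein gene fell as far as the respiratory chain median at 30, 60 or 120 min. That held under all 3 scalings. The ratio of the 2 medians was 0.342, 0.267 and 0.303 at these times on the deposited scale. It was smaller under the others, at 0.157, 0.129 and 0.172 after quantile normalization and 0.162, 0.148 and 0.199 with a common median. Over the respiratory chain genes, a median of 91.2% of the 30 min change was left at 120 min on the deposited scale. That this exceeds the share left in the ribosomal protein genes depends on the scale. From 30 to 120 min the respiratory chain median went from -3.57 to -3.15 after quantile normalization and from -3.18 to -2.84 with a common median. The ribosomal protein median went from -0.56 to -0.54 and from -0.52 to -0.56. QCR8 had the smallest change of the respiratory chain at 30 min (-1.25), but from a steady state signal of only 31.1 ± 10.1 (SD, n = 3) and with 1 array under the floor. After quantile normalization the respiratory chain median at 30 min was -3.57 (37 of 38 lower) and with a common median -3.18 (38 of 38). The list of 81 cytosolic ribosomal protein genes was matched by symbol and includes RPP1, which encodes no ribosomal protein. In contrast to the respiratory chain genes, 80 of these 81 rose at 30 min with a median of 1.08, against 22.6% of all genes. Under quantile normalization 60 rose and 1 fell (40.0% of all genes higher), and with a common median 81 rose (43.6%).

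**Figure D4:**
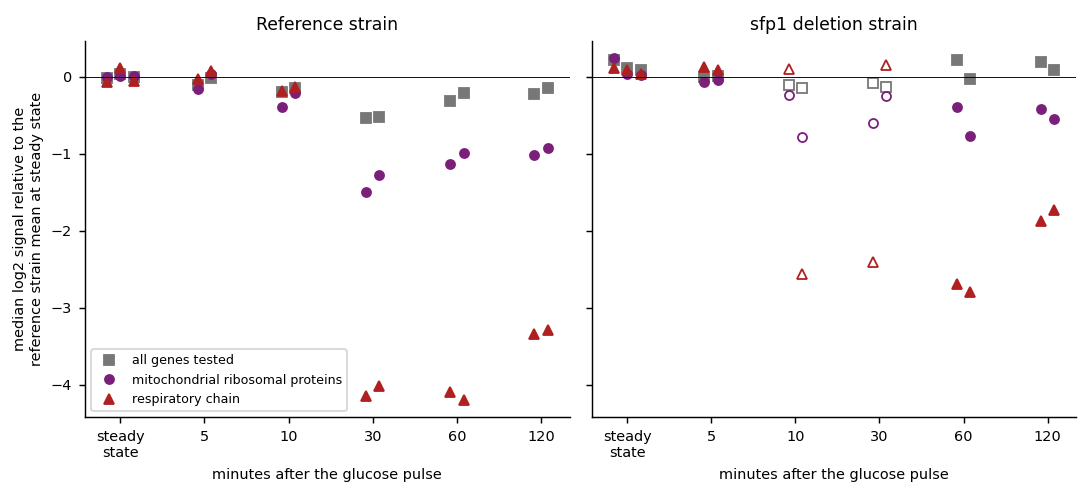
Median log2 signal relative to the reference strain's steady state mean on each array, for all genes tested (squares), the 67 mitochondrial ribosomal protein genes (circles) and 38 respiratory chain genes (triangles), by time after the pulse and strain. Open symbols are the 4 deletion arrays labelled 10 and 30 min, which were left out of the main comparisons. In the reference strain at 30 min the ribosomal protein medians lie between those of all genes and of the respiratory chain. In the deletion strain 1 array of each label at 10 and 30 min has a respiratory chain median above 0 and the other one below -2.

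Other parts of the mitochondrial translation machinery fell with the ribosomal proteins in the reference strain at 30 min. All of these counts stand against 53.0% of all genes lower and 22.6% higher, and medians against -0.53. Under quantile normalization the shares of all genes were 33.6% and 40.0%, and with a common median 32.7% and 43.6%. Of 12 mitochondrial ribosomal protein genes whose symbols the rule does not match, 12 were lower with a median of -1.54, and 8 and 7 remained lower under quantile normalization and a common median. The largest changes among them were those of QRI5 (-2.96), NAM9, the uS4 protein (-2.04), FYV4 (-1.96) and RML2, the uL2 protein (-1.77). Among the 8 translation factor genes 7 were lower, with TUF1, the elongation factor Tu, at -2.88 ± 0.17, and MEF1, the elongation factor G, at -2.83 ± 0.18. TUF1 had a mean signal of 239 ± 41.1 (SD, n = 3) at steady state and of 32.7 ± 8.2 (n = 2) at 30 min. MEF2 (-2.05) and the recycling factor gene RRF1 (-1.82) followed.

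All 14 mitochondrial aminoacyl-tRNA synthetase genes were lower at 30 min (median -1.78), led by MSK1 (-2.49), AIM10 (-2.08), MSD1 (-1.97) and MSM1 (-1.88). Under quantile normalization 10 and with a common median 12 of the 14 remained called. Of 9 genes for mitochondrial DNA maintenance and transcription 7 were lower, against 53.0% of all genes. They were led by ABF2, the DNA-packaging protein (-2.31), and MGM101 (-1.83), RIM1 (-1.52) and MTF1 (-1.32). Quantile normalization left 4 of the 9 lower and put 2 higher, against 33.6% and 40.0% of all genes.

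Assembly factors and translational activators were mixed. Of 10 assembly factor genes 6 were lower, a share near the 53.0% of all genes, led by MAM33 (-2.33) and CBP6 (-2.27), then MTG1 (-1.63). MRM1, the methyltransferase of the mitochondrial large ribosomal RNA, rose by 0.92 ± 0.16, and by more under the other scalings (1.31 and 1.80). Of 13 genes for activators of single mitochondrial messages 9 were lower, also against 53.0% of all genes, led by PET54 (-3.01), MSS51 (-1.90), PET494 (-1.86) and CBS2 (-1.49). CBP1, which stabilizes the cytochrome b message, rose by 1.30 ± 0.16, and by 2.34 and 2.18 under the other scalings. Under quantile normalization 4 assembly factor and 4 activator genes were called higher, against 40.0% of all genes.

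Of 9 genes for regulators of mitochondrial gene expression and growth, HAP4, the glucose-repressed subunit of the Hap activator, fell most. Both 30 min arrays of HAP4 were under the floor, after a mean signal of 259 ± 34.6 (SD, n = 3), a fall of at least 21.4-fold. HAP5 changed by -2.19 and HAP2 by -1.46. IFH1, a coactivator of cytosolic ribosomal protein genes, rose by 2.46 ± 0.18, HAP1 by 1.09 and SFP1 by 0.85. HAP4, HAP5, IFH1, HAP1 and SFP1 kept their direction and call under all 3 scalings, while HAP2 was not called under the other 2.

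At steady state few of these genes were called different between the strains. In the deletion strain 3 of 67 were lower and 3 higher, against 8.14% and 18.4% of all genes, and the median difference from the reference strain was 0.11 beside 0.13 for all genes. MRPL4, the uL29 protein at the tunnel exit of the large subunit, had signals of 95.0, 105 and 114 in the deletion strain and 161, 173 and 259 in the reference strain (-0.89 ± 0.22, limma adjusted p 0.00885). RSM7, the uS7 protein of the small subunit, had 366, 375 and 415 against 472, 517 and 711 (-0.54 ± 0.13, limma adjusted p 0.00758). The strains did not overlap in MRPL4 or RSM7, and both genes were called in every fit without 1 array and under all 3 scalings.

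RSM23, the third gene called lower, had 9.5, 18.8 and 21 against 23.9, 26.3 and 29.8, with 1 array under the floor, and was at least 1.58-fold lower. It kept its call under all 3 scalings but lost it without reference steady state replicate 2 or 3 or deletion steady state replicate 1, whose actin ratio was 0.147. The 3 genes called higher were RSM10, the uS10 protein (0.84), MRP2, the uS14 protein (0.65), and MRPS12 (0.30). None of these 3 was called under either of the other scalings, which called 7 lower and 0 higher each (13.6% and 13.8% of all genes under quantile normalization, 13.3% and 9.65% with a common median). The count of 3 higher became 1 without reference steady state replicate 2 or 3 or deletion steady state replicate 2, and 5 without either reference 30 min array.

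After the pulse the deletion strain's mitochondrial ribosomal protein genes also fell. At 5 min 2 of 67 were lower (4.95% of all genes) and none higher (1.83%), MRP20 by 0.98 and MRPL20, a mitochondria-specific large subunit protein, by 0.65 on the log2 scale. MRP20 had signals of 50.4, 51.5 and 65.3 at steady state and 27.2 and 29.1 at 5 min, which did not overlap. The MRP20 call was lost without deletion steady state replicate 3 or either 5 min array (limma adjusted p up to 0.157), and that of MRPL20 in 10 of the 22 fits without 1 array.

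At 60 min 48 of 67 were lower and none higher in the deletion strain (31.3% of all genes lower, 27.0% higher), with a median of -0.72 beside 0.00 for all genes. At 120 min 38 were lower (22.3% of all genes) and none higher (19.9%), with a median of -0.60 beside 0.04. Quantile normalization gave 37 and 34 lower (25.1% and 20.1% of all genes), and a common median 36 and 31 (25.3% and 19.1%). Each of these other scalings called 1 gene higher at 60 min and none at 120 min, and the shares of all genes higher are not given here. The respiratory chain median was -2.78 at 60 min and -1.92 at 120 min, with 38 of 38 lower at both times. The 48 fell to 28 without deletion 60 min replicate 2, and the 38 to 24 without deletion 120 min replicate 2. Without deletion 60 min replicate 1, whose actin ratio was 0.247, the count at 60 min was 45.

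The largest changes in the deletion strain at 120 min were those of MRP21 (-1.40), MRPL39 (-1.37), MRPL20 (-1.36) and RSM28, a mitochondria-specific small subunit protein (-1.24), and all 4 held in every fit without 1 array. MRPL39 had 442, 451 and 489 at steady state, 113 and 166 at 60 min, and 176 and 181 at 120 min. These groups did not overlap with steady state, and the change of -1.37 ± 0.16 (limma adjusted p 2.12e-06) stands beside -1.28 in the reference strain. The smallest changes were those of MRPL3 (0.02), MRPL19 (0.02), MRP13 (-0.06) and RSM23 (-0.06), none of them called. MRP8 had 450, 456 and 505 at steady state, 75.0 and 76.6 at 60 min and 236 and 255 at 120 min.

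Of the 62 genes lower in the reference strain at 60 min, 47 were also lower in the deletion strain, which is 75.8% of the first set and 97.9% of the second. At 120 min 36 were lower in both, 59.0% and 94.7%. Over all 67 genes 71.6% were lower in the deletion strain and 92.5% in the reference strain at 60 min. At 120 min these shares were 56.7% and 91.0%. The overlaps lie near the shares over the 67, and the overlap over all genes tested was not computed. The change was smaller in size in the deletion strain in 59 of 67 genes at 60 min and in 61 at 120 min, against 65.2% and 64.2% of all genes. Under quantile normalization it was 42 and 43 (60.1% and 62.9% of all genes) and with a common median 40 and 46 (65.0% and 66.4%), which is near the background. The difference between the strains' changes was tested as an interaction. At 5 min no gene was called by limma (0.205% of all genes higher, 0.317% lower), with 2 higher and 2 lower at an unadjusted p under 0.05. The smallest adjusted p values at 5 min were those of MRPS18 (0.372), RSM24 (0.394) and RSM22 (0.399). At 60 min 11 genes were higher in the interaction and none lower, against 18.1% and 5.27% of all genes. At 120 min it was again 11 and none, against 15.2% and 4.34%. These counts are close to the background. The interaction medians were 0.44 and 0.47, beside 0.26 and 0.24 for all genes, and fell to 0.05 and 0.10 after quantile normalization and to 0.08 and 0.16 with a common median.

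**Figure D5:**
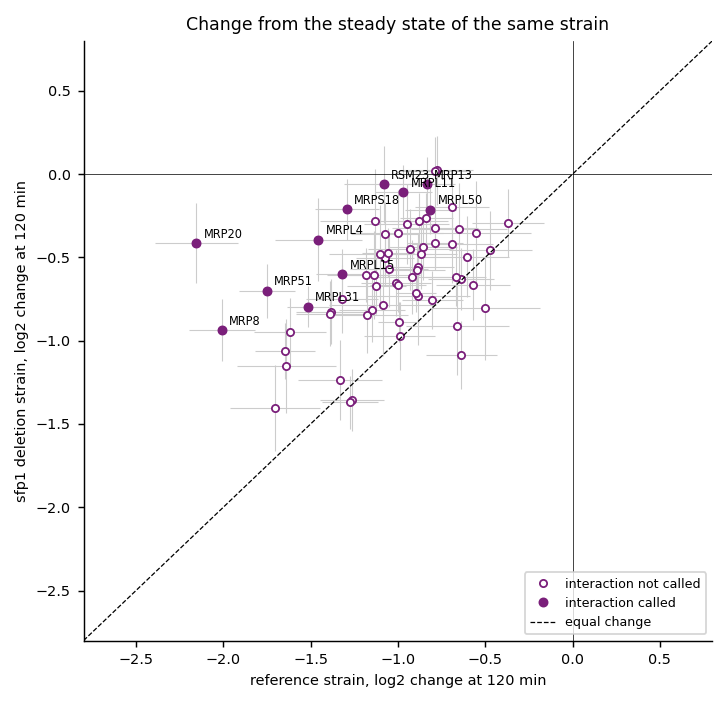
Log2 change at 120 min in the deletion strain against that in the reference strain for each of the 67 genes, each from its own strain's steady state, with standard errors as bars. Filled points are the 11 genes with a called interaction, and the dashed line marks equal change. On the deposited scale most points lie above the line, and MRP20 lies farthest from it.

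The interaction count was sensitive to scaling and to single arrays. Quantile normalization and a common median each left 1 gene higher at 60 min (8.79% and 8.16% of all genes) and 2 at 120 min (7.30% and 7.51%). At 60 min the count was 4 without deletion 60 min replicate 1, 22 without deletion 60 min replicate 2, and 5 and 6 without reference 60 min replicates 1 and 2. At 120 min it was 6 without reference 120 min replicate 1, without reference 120 min replicate 2, or without deletion 120 min replicate 1. It was 18 without either deletion 60 min array. The gene left at 60 min under the other scalings was RSM19, the uS19 protein (0.89 ± 0.23, limma adjusted p 0.0107). RSM19 lost its call without reference 60 min replicate 1 or deletion 60 min replicate 1.

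The genes left at 120 min were MRP20 and MRP51, both also called in every fit without 1 array. MRP20 had signals of 34.7 and 49.7 at 120 min in the deletion strain, after 50.4 to 65.3 at steady state, while the reference strain went from 64.5 to 96.6 down to 17.5 and 18.4. In the deletion strain its change was -0.89 at 60 min, which was called lower (limma adjusted p 0.00399). At 120 min it was -0.41 and not called, and the interaction was 1.74 ± 0.34 (limma adjusted p 0.00166). MRP51 had 58.3 and 61.7 at 120 min in the deletion strain, after 83.5 to 116, and 27.5 and 32.5 in the reference strain, after 87.5 to 109. Its interaction was 1.05 ± 0.23 (limma adjusted p 0.00384). In both genes the strains overlapped at steady state and did not overlap at 120 min. For MRP20 the overlap was slight, 65.3 in the deletion strain against 64.5 in the reference strain. Its steady state difference of -0.53 was not called (limma adjusted p 0.0747), but it enters the interaction.

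MRPS18, the uS11 protein (1.08), MRP8 (1.07) and MRPL31 (0.72) were also called at 120 min in every fit without 1 array, but not under the other scalings. MRPL4 (1.06) and RSM23 (1.02), the genes that started lower in the deletion strain, were called in 10 and 16 of those 22 fits. MRPL4 overlapped between the strains at 120 min, with 68.3 and 92.3 in the deletion strain and 68.0 and 73.0 in the reference strain. Under the other scalings MRPS9, the uS9 protein, was called lower in the interaction at 120 min (-0.78 and -0.76, against 7.51% and 11.2% of all genes lower), which the deposited scale did not call (-0.45).

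The deletion arrays labelled 10 and 30 min are given as labelled, from a fit of all 26 arrays in 12 groups. At 10 min 30 of 67 genes were lower (25.9% of all genes, median -0.68) and at 30 min 23 (23.4% of all genes, median -0.60). None was higher at either time on the deposited scale, against 6.74% and 6.93% of all genes. Under quantile normalization 11 were lower and 4 higher at 10 min, and 10 and 1 at 30 min. With a common median it was 6 and 4 at 10 min, and 8 and 1 at 30 min. For these other scalings the shares of all genes are not given here. The arrays of 1 label did not resemble each other. Relative to the reference strain's steady state, the members' median was -0.24 on 10 min replicate 1, -0.78 on 10 min replicate 2, -0.60 on 30 min replicate 1 and -0.25 on 30 min replicate 2. The respiratory chain median was 0.10, -2.56, -2.41 and 0.15 on the same arrays. MRP8 had signals of 439 and 73.4 at 10 min and of 146 and 490 at 30 min.

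Actin ratios of the arrays also differed. The middle to 3′ ratio was 0.207 on 10 min replicate 2 and 0.176 on 30 min replicate 1, where the other 24 arrays were at 0.560 or above, and the 5′ to 3′ ratio of 30 min replicate 1 was 0.00322. The part of RNA quality in these values was not tested. Without 10 min replicate 2 the count at 10 min was 9, and without 10 min replicate 1 it was 41. At 30 min it was 14 without replicate 1 and 32 without replicate 2.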

How the data were processed

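The authors deposited 1 intensity per probe set and array on a linear scale. The submitters' processing notes name GCOS, Affymetrix's array software. The 2% trimmed mean over all probe sets was 150.1 to 150.2 on every array, so the arrays were already scaled. The genome build is not given in the sources used here. Probe sets were named through the platform annotation: of 9335, 60 are controls, 6504 name 1 gene, 328 several and 2443 none. Each gene was represented by its brightest probe set. Genes with fewer than 2 arrays over a signal of 12 were left out (287), signals under 12 were set to that floor, and log2 was taken.

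The main fit was limma 3.58.1 in R 4.3.3 (lmFit, then eBayes with an intensity trend), with 10 groups and 22 arrays, 2-sided, and Benjamini-Hochberg adjustment over 5369 genes. It left 12 residual degrees of freedom and 4.66 prior ones. The deletion arrays labelled 10 and 30 min entered a second fit of 12 groups and 26 arrays. The number of arrays limits the precision. Folds are differences of mean log2 signals. Where an array lay under the floor, they are bounds ("at least"). On simulated data with the real means, 93 of 100 genes shifted by -1 and 100 of 100 shifted by -2 were recovered at 30 min, and 9 unchanged genes were called. Few of the 5369 genes were shifted there, while 53.0% were called lower and 22.6% higher in the data. The simulation therefore does not show how calls depend on scaling. Replicates of a strain and time came from independent cultures, per the labels' protocols, which do not say whether a number marks the same culture at different times.

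The genes, gene lists and tests were chosen with earlier results of these data known. Named were the 12 largest and 8 smallest changes at 30 min in the reference strain, the 4 largest and 4 smallest at 120 min in each strain, members called at steady state or in an interaction (at most 10, otherwise the 3 lowest adjusted p), members called against the median's direction, MRP8, RSM22, SFP1 and up to 4 genes of each other list. Other named genes were chosen after their values were seen. VAR1 and PUF3 were not tested. Figures were drawn with matplotlib 3.10.9.

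The correlation of deviations from group means between same-numbered arrays of different times was over 0.1 in only 8 and 7 of 15 reference pairs and 3 and 3 of 6 deletion pairs. Consistent pairing was not shown, and replicate numbers were not used as pairs. Alternatives were another floor, filter, threshold, trend, scaling or set of arrays, a replicate block, and leaving out each array.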

Additional observations from a re-analysis of the deposited data

Results flagged for a closer look

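The genes below were singled out because the test of the difference between the strains' changes (limma, adjusted p under 0.05) called them. In each, the change after the pulse was higher, that is, less negative, in the deletion strain. At 60 min the differences on the log2 scale were 1.03 for MRP20, 0.93 for MRP51, 0.92 for MRP8, 0.78 for MRPL15, 0.78 for MRPL16, 0.72 for MRPL31, 0.83 for MRPL35, 0.72 for MRPL44, 0.89 for RSM19, 0.90 for RSM27 and 0.78 for RSM7. At 120 min they were 0.77 for MRP13, 1.74 for MRP20, 1.05 for MRP51, 1.07 for MRP8, 0.86 for MRPL11, 0.72 for MRPL15, 0.72 for MRPL31, 1.06 for MRPL4, 0.60 for MRPL50, 1.08 for MRPS18 and 1.02 for RSM23. MRP20, MRP51, MRP8, MRPL15 and MRPL31 were called at both times. Quantile normalization and a common median kept RSM19 at 60 min and MRP20 and MRP51 at 120 min, and no other of these calls. Both reference 120 min arrays of MRP13 were under the floor, as were 1 of the reference 120 min arrays and 1 deletion steady state array of RSM23, so the sizes of these 2 differences were not measured.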

How the results depend on the processing

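Of the summary results, 1293 alternative values kept their direction and side of the threshold or stayed within the spread, as did 135 of the 30 min changes of named genes. The other summary values were rated weaker (76), moved (44), stronger (37) or reversed (2). For the named genes 13 were reversed and 4 weaker. The cause of the others was not tested, apart from fewer arrays or genes where these were left out. Quantile normalization gave 11 lower, 1 higher and a median of -0.119 for reference 10 min. It gave 43, 2 and -0.559 at 30 min, 37 lower and -0.491 at 60 min, and -0.542 at 120 min. From 30 to 120 min it gave 7 lower, 8 higher and -0.014. The deletion strain's median was -0.033 at 5 min and -0.488 at 60 min, with 1 higher. Steady state gave 7 lower, 0 higher and -0.015. The interaction gave 1 higher and 0.052 at 60 min, and 1 lower, 2 higher and 0.104 at 120 min. The deletion arrays as labelled gave 11 lower, 4 higher and -0.261 at 10 min, and 10, 1 and -0.221 at 30 min. A common median gave, in the same order, 9 lower, 1 higher and -0.087, 40, 2 and -0.516, 38 lower and -0.532, and -0.564. From 30 to 120 min it gave 7, 7 and -0.022. The deletion strain had 1 lower and -0.012 at 5 min, 1 higher and -0.483 at 60 min, and -0.467 at 120 min. Steady state gave 7 lower, 0 higher and -0.056. The interaction gave 1 higher and 0.077, then 1 lower, 2 higher and 0.155. The arrays as labelled gave 6, 4 and -0.205, then 8, 1 and -0.156. At 30 min in the reference strain the direction reversed under quantile normalization for RSM23 (0.283), MRPL3 (0.037), MRPL24 (0.055), MRP13 (0.335), RSM22 (0.477), MRPL17 (0.273) and MRPS35 (0.341). With a common median it reversed for MRPL3 (0.038), MRPL24 (0.164), RSM22 (0.155), MRPL37 (0.206), MRPL17 (0.407) and MRPS35 (0.46).

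A floor of 48 gave 2 lower and 1 higher at reference 5 min, medians of -1.155 and -0.973 at 30 and 60 min, 12 higher with a median of 0.209 from 30 to 120 min, -0.594 at deletion 60 min, 5 higher at steady state, 7 higher and 0.276 in the interaction at 60 min and 0.33 at 120 min. An adjusted p under 0.01 gave 10 lower at reference 10 min, 13 higher from 30 to 120 min, 0 at deletion 5 min (limma; 2 under 0.05), 0 higher at steady state, 2 and 5 in the interactions, and 13 and 12 for the arrays as labelled. All 26 arrays gave 10 at reference 10 min, 12 higher from 30 to 120 min, 0 and 20 lower at deletion 5 and 120 min, 1 lower and 0 higher at steady state, and 0 and 1 in the interactions. Only genes with a group mean over 96 gave 0 and 11 at reference 5 and 10 min, 1 at deletion 5 min and 6 in the 120 min interaction. Only the groups compared gave 1 and 30 at deletion 5 and 60 min, 1 lower at steady state and 2 in the 60 min interaction. No intensity trend gave 2 at reference 5 min. Without the 2 deletion arrays of low actin ratio there were 2 lower at reference 5 min, 1 lower from 30 to 120 min, 1 at deletion 5 min, and 3 and 19 in the interactions. Pooling the 4 deletion arrays gave 39 lower at 30 min. Without 10 min 2 and 30 min 2 there were 17 (median -0.382) and 40 (-0.722), and without 10 min 1 and 30 min 1, a choice made after seeing the data, 51 (-0.94) at 10 min and a median of -0.389 at 30 min.

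With the replicate number as a block, deletion 5 min gave 1 lower, and no other summary count moved by over 1.5 times: 66, 61 and 60 were lower at reference 30, 60 and 120 min. The numbers did not pair the arrays consistently, though 12 of 20 correlated best with their own number.

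Leaving out 1 array at a time gave these ranges of genes lower: 0 to 2 (median -0.165 to 0.033, higher 0 to 1) at reference 5 min, 11 to 21 (-0.396 to -0.219) at 10 min, 60 to 67 (-1.497 to -1.281) at 30 min, 53 to 65 (-1.134 to -0.997) at 60 min and 52 to 63 (-1.018 to -0.927) at 120 min. From 30 to 120 min 11 to 25 were higher (0.322 to 0.472). The deletion strain had 0 to 4 (-0.223 to -0.087) at 5 min, 28 to 48 (-0.853 to -0.549) at 60 min and 24 to 39 (-0.637 to -0.510) at 120 min. At steady state 2 to 4 were lower and 1 to 5 higher (0.040 to 0.166). In the interaction the median was -0.272 to -0.053 at 5 min, 4 to 22 were higher at 60 min (0.258 to 0.616) and 6 to 18 at 120 min (0.389 to 0.561). As labelled, 9 to 41 (-0.940 to -0.382) and 14 to 32 (-0.722 to -0.389) were lower at 10 and 30 min. Groups of 2 arrays and signals near the floor, as for MRP13, RSM22 and RSM23, limit the smaller changes.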

Other observations

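In the deletion strain at 60 min 12 of 14 mitochondrial aminoacyl-tRNA synthetase genes, 5 of 8 translation factor genes and 7 of 12 mitochondrial ribosomal protein genes outside the rule were lower (31.3% of all genes). At 120 min it was 6, 4 and 7 (22.3% of all genes). Their medians went from -0.75 to -0.42, from -1.16 to -0.53 and from -0.57 to -0.47 between these times, on the log2 scale and from steady state. Of the 81 genes in the cytosolic ribosomal protein list, which includes RPP1, 71 were higher at 60 min (27.0% of all genes). At 120 min 19 were higher, close to the 19.9% of all genes. It was 40 under quantile normalization and 21 with a common median. For those scalings the shares of all genes called higher are not given here, so the counts of 40 and 21 have no background. HAP4 changed by -3.50 at 60 min in the deletion strain.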
